A study of Mus musculus with 6 samples.

Results

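The Pim kinases Pim1, Pim2 and Pim3 were followed across 6 RNA-seq libraries of mouse embryonic stem cells (ESCs). They are 3 of the 25170 gene symbols in the deposited FPKM table, found by symbol, and all 3 passed the filter on low values that left 11785 genes for testing. The genes were selected on family membership and on their FPKM in these same libraries, in which Pim2 had been seen to run opposite to Pim1 and Pim3. Their levels across the libraries and their change on LIF removal are therefore given as a description, with no p-value. Effects of the knockout were tested, but the genes were picked with all 6 values known, so those p-values are not independent evidence.

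All libraries came from the E14 ESC line. Cells were Hnrnpf knockout (Hnrnpf KO) or wild type (WT), and were either harvested 4 days after removal of leukemia inhibitory factor (LIF) or kept in serum medium with LIF. The groups were 2 knockout libraries after LIF removal, 1 wild type library after LIF removal, 2 knockout libraries with LIF and 1 wild type library with LIF. The product of Hnrnpf is a splicing regulator that binds RNA and belongs to the hnRNP H/F family. The labels name neither the deleted part of the gene nor the clone behind a knockout number, and nothing states whether replicate libraries are separate cultures, so the spread between libraries may be technical. A wild type value stands on 1 library and has no replicate error.

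Pim genes encode serine/threonine kinases that lack a regulatory domain and are active once made, so their output follows transcript and protein abundance. They were found in mice as genes activated by retroviral insertion in lymphomas, and they promote survival, cell cycle entry and translation. LIF binds the receptor pair Lifr and Il6st, which activates Jak kinases and the transcription factor Stat3. Stat3 holds mouse ESCs in self-renewal, and Pim1 and Pim3 are known as genes that LIF keeps high in these cells.

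Hnrnpf stood at 95.2 and 27.8 FPKM in the knockout libraries after LIF removal, against 335 FPKM in wild type, and at 98.7 and 37.1 FPKM in the knockout libraries with LIF, against 342 FPKM in wild type. FPKM is fragments per kilobase of transcript and scaled to the mapped fragments of the library, as the authors deposited it. Summed FPKM per library was 456155 and 457798 in knockout libraries and 486898 in wild type after LIF removal, against 503475 and 504906 in knockout libraries and 556318 in wild type with LIF. Pluripotency markers were present throughout, with all 7 of the list at 1 FPKM or more in every library. Of the 7 fibroblast (feeder) markers, 5 were below 1 FPKM in every library, and Lum was at 0 in 5 of 6. The others were Thy1, at 3.16 to 7.01 FPKM, and Col1a1, which reached 1.24 FPKM in knockout library 2 after LIF removal. With LIF, Thy1 had 7.01 FPKM in each knockout library and 3.16 FPKM in wild type. The 6 markers of blood cells, in which Pim genes are well studied, summed to between 1.07 and 4.36 FPKM, with Hbb-bs at 0 in all 6 libraries and Ptprc at 0 in 5.

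The members lie on 3 chromosomes of the mm10 (GRCm38) genome and each has 6 exons in its longest coding transcript. Pim1 is at chr17:29490753-29496112, Pim2 at chrX:7878262-7883432 and Pim3 at chr15:88862186-88865726, all on the plus strand. No word of 31 bases in a member's longest coding transcript occurred in the annotated transcripts of another Pim gene. Of such words, 13.5% of Pim1 occurred in transcripts of other genes, namely Itpr1, Gm20342 and Gm26885, the last annotated on the opposite strand of Pim1. Whether counting used strand is not given in the sources used here, so reads from the stretch that Gm26885 shares with Pim1 cannot be told apart. Gm26885 itself has no row among the FPKM values. For Pim2 the share was 6.20%, in Gm7645 and Gm21182, and for Pim3 it was 0%.

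The sequences upstream of the transcript starts are shown because Pim1 and Pim3 moved together and Pim2 apart. Each is the 250 bases before a RefSeq start (GRCm38.p6, plus strand, 5′ to 3′), with the octamer ATGCAAAT, the CCAAT box and the GC box GGGCGG in capitals on either strand. The windows are chr17:29490535-29490784 for Pim1, chrX:7878056-7878305 for Pim2 and chr15:88861944-88862193 for Pim3. Each runs past the gene start given above, which is from GENCODE, so its last bases lie inside the gene in that annotation. Distances below are to the RefSeq start.
Pim1: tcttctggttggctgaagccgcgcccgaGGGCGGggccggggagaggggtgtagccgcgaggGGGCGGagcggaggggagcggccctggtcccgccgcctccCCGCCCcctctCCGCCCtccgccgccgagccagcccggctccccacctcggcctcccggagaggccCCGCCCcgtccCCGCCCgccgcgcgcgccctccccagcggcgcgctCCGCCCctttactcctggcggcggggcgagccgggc
Pim2: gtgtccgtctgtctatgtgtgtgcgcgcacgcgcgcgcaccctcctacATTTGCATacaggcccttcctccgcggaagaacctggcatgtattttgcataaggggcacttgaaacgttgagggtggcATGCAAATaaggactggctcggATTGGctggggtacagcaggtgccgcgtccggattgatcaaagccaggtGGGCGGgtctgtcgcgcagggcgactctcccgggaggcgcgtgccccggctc
Pim3: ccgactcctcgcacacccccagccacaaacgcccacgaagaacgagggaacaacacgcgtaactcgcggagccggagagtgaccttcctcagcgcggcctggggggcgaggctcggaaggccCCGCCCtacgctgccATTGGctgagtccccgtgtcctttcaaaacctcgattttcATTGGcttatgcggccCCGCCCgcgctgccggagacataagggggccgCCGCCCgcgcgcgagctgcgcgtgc

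The Pim2 window held the octamer at 202 and at 123 bases before the start, once on each strand, and a CCAAT box at 101 bases. The octamer is the known binding motif of POU factors such as Pou5f1 (Oct4). It occurred in 1.60% of the 32851 windows of the same length in the RefSeq table, and 0.0974% of windows held 2 or more. Neither Pim1 nor Pim3 had it. The octamer was picked after the windows had been read, so its share is a description. Pou5f1 had 587 and 683 FPKM in knockout libraries and 960 FPKM in wild type after LIF removal. With LIF it had 1000 and 1050 FPKM in knockout libraries and 1150 FPKM in wild type, so it was lower after LIF removal, where Pim2 was higher. Any part of the octamer or of Pou5f1 in the Pim2 values was not tested. Pim3 held 2 CCAAT boxes, at 113 and 73 bases before the start, where 33.8% of windows hold at least 1. GC boxes were present in all 3 windows, 7 in Pim1, 1 in Pim2 and 3 in Pim3, and in 32.7% of all windows. The windows were 82.4% G and C for Pim1, 62.0% for Pim2 and 68.0% for Pim3, against a median of 52.4% over all windows. The STAT motif TTCNNNGAA, which 7.02% of windows hold, was in none of the 3 on either strand. The TATA box TATAAA (12.4% of windows), the cyclic AMP response element TGACGTCA (1.55%) and the Esrrb motif TCAAGGTCA (0.387%), also searched on both strands, were in none of them either. These letters being absent says nothing on the factors beyond this window. The E-box CACGTG, in 6.02% of windows, was found only before a second RefSeq start of Pim1 that lies inside the gene, at 58 bases before it.

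Pim2 was the most variable member. It had 322 and 406 FPKM in knockout libraries 1 and 2 after LIF removal and 394 FPKM in wild type after LIF removal. With LIF it had 113 and 238 FPKM in knockout libraries 1 and 2 and 38.8 FPKM in wild type. All 3 libraries after LIF removal thus lay above all 3 libraries with LIF, and within the LIF medium wild type was lowest. In bulk RNA, fewer cells that express a gene and less RNA per cell cannot be told apart. In ascending order of level, wild type with LIF stood below knockout with LIF (175 ± 88.3 FPKM, SD, n = 2), then knockout after LIF removal (364 ± 59.9 FPKM, SD, n = 2) and wild type after LIF removal. The last 2 of these groups did not differ beyond the spread of the knockout libraries.

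Pim1, the founding member of the family, had 27.8 and 39.5 FPKM in knockout libraries 1 and 2 after LIF removal and 59.0 FPKM in wild type after LIF removal. With LIF it had 63.1 and 56.2 FPKM in the knockout libraries and 117 FPKM in wild type. Its level in wild type with LIF stood apart from the other 5, and the knockout libraries with LIF (59.6 ± 4.84 FPKM, SD, n = 2) lay on both sides of wild type after LIF removal.

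Pim3 had 37.0 and 44.4 FPKM in knockout libraries 1 and 2 after LIF removal and 75.0 FPKM in wild type after LIF removal. With LIF it had 64.4 and 65.0 FPKM in the knockout libraries and 120 FPKM in wild type. Its order over the groups was that of Pim1 except that wild type after LIF removal stood above both knockout libraries with LIF. Of the 3 members, only Pim2 had libraries after LIF removal and with LIF that did not overlap, as 31.7% of the tested genes did.

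**Figure D1:**
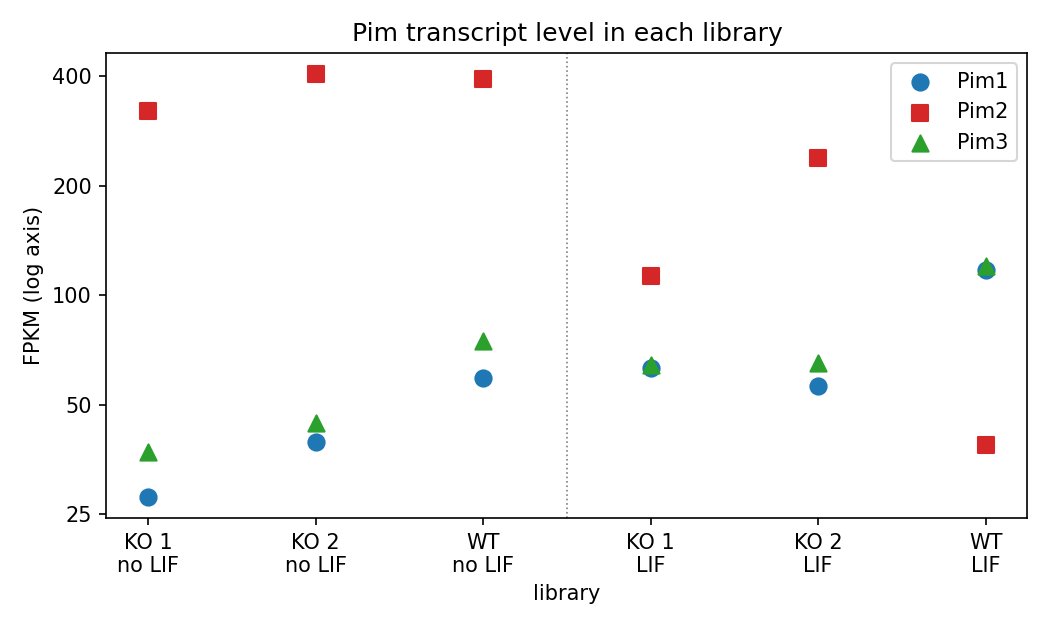
FPKM (log axis) of Pim1, Pim2 and Pim3 in each of the 6 libraries, 1 point per gene and library, knockout left of wild type in each medium. Pim2 lies above both other genes in 5 libraries and below them in wild type with LIF, where it has 38.8 FPKM.

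Pim1 and Pim3 kept nearly equal levels. The ratio of Pim1 to Pim3 FPKM was 0.751 and 0.891 in knockout libraries and 0.787 in wild type after LIF removal, and 0.979 and 0.864 in knockout libraries and 0.977 in wild type with LIF. The ratio of Pim2 to Pim3 FPKM was 8.70 and 9.16 in knockout libraries and 5.25 in wild type after LIF removal, against 1.75 and 3.65 in knockout libraries and 0.323 in wild type with LIF. The Pim1 to Pim3 ratio therefore stayed between 0.751 and 0.979 while the Pim2 to Pim3 ratio spanned 0.323 to 9.16.

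Summed over the 3 genes, Pim FPKM was 386 and 490 in knockout libraries and 528 in wild type after LIF removal, against 240 and 359 in knockout libraries and 276 in wild type with LIF. Pim2 made up 83.2% and 82.9% of this sum in knockout libraries and 74.6% in wild type after LIF removal. With LIF it made up 46.9% and 66.2% in knockout libraries and 14.1% in wild type. Wild type cells with LIF were the one library in which Pim2 was the least abundant member, with Pim1 at 42.5% and Pim3 at 43.5%. On the log2(FPKM + 1) scale, Pim2 minus the mean of Pim1 and Pim3 was 3.29 and 3.25 in knockout libraries and 2.55 in wild type after LIF removal. With LIF this difference was 0.81 and 1.96 in knockout libraries and -1.59 in wild type.

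**Figure D2:**
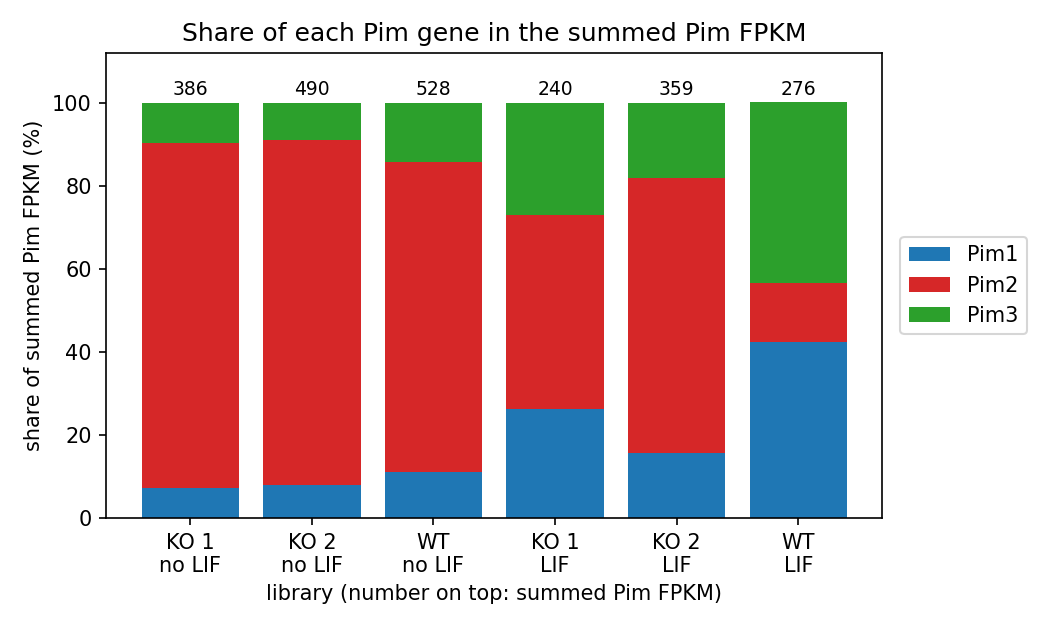
Share (%) of each Pim gene in the summed Pim FPKM of a library, with the sum printed on top of each bar. The Pim2 share is 74.6% to 83.2% after LIF removal, 46.9% and 66.2% in knockout libraries with LIF and 14.1% in wild type with LIF.

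After LIF removal, Pim1 and Pim3 were lower and Pim2 was higher than with LIF, in wild type and in knockout libraries of either number. In wild type cells, 1 library against 1 with no test, the level after LIF removal was 10.1 times that with LIF for Pim2, 0.504 times for Pim1 and 0.626 times for Pim3. Between knockout libraries of number 1 the ratio was 2.85 for Pim2, 0.440 for Pim1 and 0.574 for Pim3. Between those of number 2 it was 1.71 for Pim2, 0.703 for Pim1 and 0.682 for Pim3. Whether a knockout number stands for 1 clone across the media is not in the labels, so these ratios follow the numbers only.

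Over both genotypes, the log2 difference on LIF removal was 1.86 (SE 0.43) for Pim2, -0.88 (SE 0.14) for Pim1 and -0.67 (SE 0.10) for Pim3, with 3 libraries against 3. In knockout cells alone it was 1.14 (SE 0.33) for Pim2, -0.83 (SE 0.19) for Pim1 and -0.66 (SE 0.14) for Pim3. In wild type cells it was 3.31 for Pim2, -0.98 for Pim1 and -0.67 for Pim3, so Pim2 was the 1 member past an absolute log2 difference of 1, as were 8.36% of the tested genes. Without either wild type library, the Pim2 difference over both genotypes was 1.14, since it then comes from the knockout libraries alone.

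Knockout cells had less Pim1 and Pim3 than wild type cells in both media. Pim1 in knockout libraries 1 and 2 was 47.0% and 66.9% of the wild type level after LIF removal, and 53.8% and 48.0% with LIF. Pim3 was 49.2% and 59.1% after LIF removal, and 53.7% and 54.2% with LIF. All 4 knockout libraries lay below the wild type library of their medium for these 2 members, which was so for 26.1% of the tested genes. Over both media, Pim1 fell by 0.89 on the log2 scale in knockout cells (SE 0.15, limma adjusted p = 0.0147, 4 libraries against 2), and Pim3 fell by 0.88 (SE 0.11, adjusted p = 0.00928). In every test of knockout against wild type, libraries of the same number in the 2 media were counted as independent. Same-numbered knockout libraries deviated together (r = 0.366 across 11785 genes), so these p-values may be too small. The threshold was an adjusted p of 0.05, and 10.5% of the tested genes passed it in this comparison, so that 2 of 3 members were called. Both were picked with these values known, so the calls are no independent evidence. With a wild type library left out, neither gene passed: without wild type with LIF the adjusted p was 0.183 for Pim1 and 0.140 for Pim3, and without wild type after LIF removal it was 0.126 for Pim1 and 0.101 for Pim3. Without a filter on low values, Pim1 had an adjusted p of 0.0536.

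For Pim2 the observed knockout difference was large with LIF and small after LIF removal, each against 1 wild type library. The difference between the media did not pass the test given in the next paragraph. Its level in knockout libraries 1 and 2 was 81.7% and 103% of wild type after LIF removal, and 291% and 612% with LIF. On the log2 scale the differences from wild type were -0.29 and 0.05 after LIF removal and 1.52 and 2.58 with LIF. Over both media the mean difference was 0.96 (SE 0.46, limma adjusted p = 0.221), short of the threshold. Leaving out wild type with LIF gave -0.12 and leaving out wild type after LIF removal gave 2.05, so the pooled value depends on which wild type library is kept.

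The difference between the responses of the genotypes to LIF removal was tested directly. Pim2 was picked with these values known, and its wild type value with LIF (38.8 FPKM) stands on 1 library. As a description, the Pim2 response was smaller in knockout than in wild type libraries (log2 difference of -2.17, SE 0.56). It did not pass the threshold, and neither did any other tested gene in this comparison (limma). After adjustment Pim2 was no closer to passing than Pim1 or Pim3. The lone wild type libraries are assumed in this test to vary like the knockout libraries. For Pim1 the difference of responses was 0.15 (SE 0.33, adjusted p = 1) and for Pim3 0.01 (SE 0.24, adjusted p = 1).

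**Figure D3:**
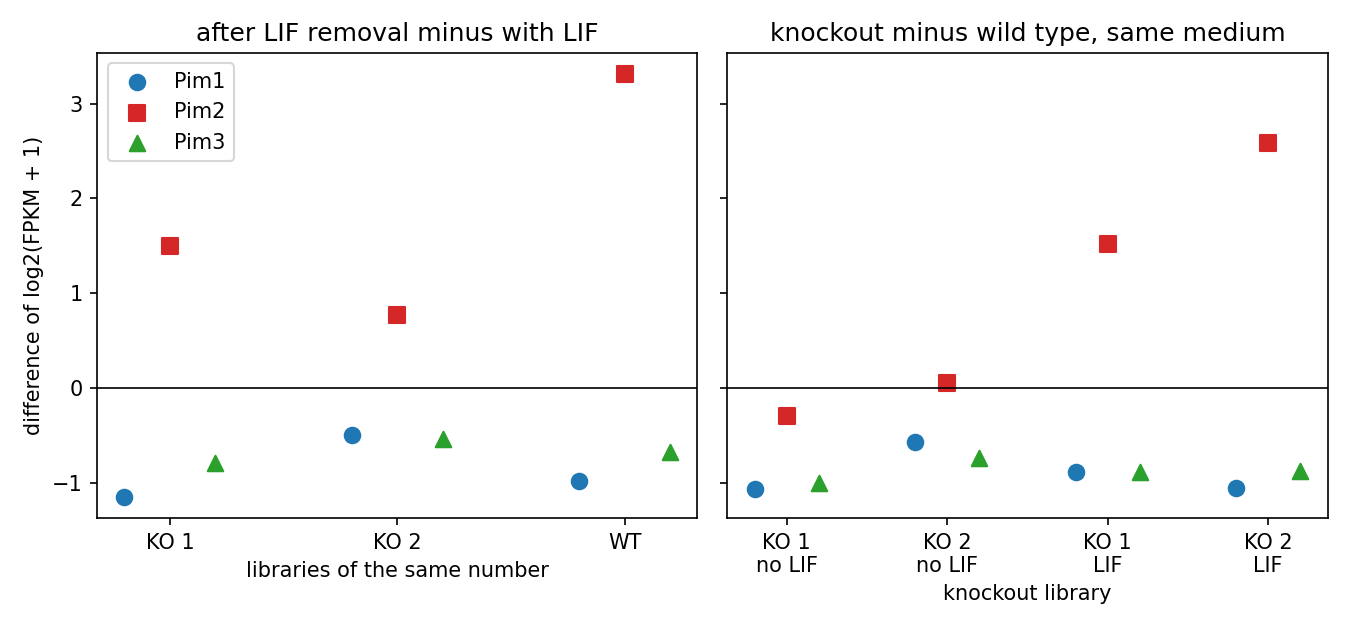
Differences of log2(FPKM + 1) for the 3 Pim genes: left, after LIF removal minus with LIF between libraries of the same number, and right, each knockout library minus the wild type library of its medium. Pim1 and Pim3 lie below 0 throughout, between -0.50 and -1.15, and Pim2 reaches 3.31 in wild type on the left and 2.58 in knockout library 2 with LIF on the right.

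The summed markers of the differentiating epiblast were higher after LIF removal, as Pim2 was, with Dnmt3b the largest of them in every library. The 6 markers summed to 374 and 435 FPKM in knockout libraries and 551 FPKM in wild type after LIF removal, against 245 and 291 FPKM in knockout libraries and 171 FPKM in wild type with LIF. Among them Dnmt3b, a DNA methyltransferase of the primed epiblast, had 236 and 275 FPKM in knockout libraries and 379 FPKM in wild type after LIF removal, and 174 and 211 FPKM in knockout libraries and 117 FPKM in wild type with LIF. Within a medium, not every marker had the order of Pim2. With LIF, Eomes was lowest in knockout library 2 (3.86 FPKM, against 5.12 FPKM in wild type). After LIF removal, T had 4.45 and 13.3 FPKM in knockout libraries and 1.81 FPKM in wild type. The 7 pluripotency markers summed to 3540 and 2850 FPKM in knockout libraries and 3830 FPKM in wild type after LIF removal, against 6280 and 6290 FPKM in knockout libraries and 8920 FPKM in wild type with LIF. Dppa5a alone made up 6460 FPKM of the last sum, and without it the other 6 summed to 1420 and 1310 FPKM in knockout libraries and 1670 FPKM in wild type after LIF removal, against 2220 and 2180 FPKM in knockout libraries and 2460 FPKM in wild type with LIF. Tdgf1, of the same list, had 197 and 190 FPKM in knockout libraries and 215 FPKM in wild type after LIF removal, and 163 and 206 FPKM in knockout libraries and 151 FPKM in wild type with LIF. The summed FPKM of a library, given above, was also lowest in the libraries with least Pim1 and Pim3 and highest in wild type with LIF. The part of these markers and of the library sum in the Pim values was not tested.

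Upstream of the Pim genes, both receptor chains of LIF fell on LIF removal. Of the 10 ligands and receptors of the LIF family, 6 were tested, of which 2 rose, 2 fell and 2 did not pass over both genotypes, where 21.4% of all tested genes passed. Lifr had 3.69 and 2.60 FPKM in knockout libraries and 4.03 FPKM in wild type after LIF removal, against 7.35 and 5.46 FPKM in knockout libraries and 8.45 FPKM in wild type with LIF (-0.86, SE 0.17, limma adjusted p = 0.0124). Il6st, the shared signalling chain gp130, fell by 0.56 (adjusted p = 0.0132). The ligand gene Lif rose by 0.59 (adjusted p = 0.0493, but 0.0626 after quantile normalization) and Cntfr, the receptor chain for ciliary neurotrophic factor, by 1.24 (adjusted p = 0.0177). Il6 was listed at 0 in every library, and Osm and Osmr were listed at 0 in 2 and 4 libraries.

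Of the 8 Jak kinases and Stat factors, 1 rose and 2 fell on LIF removal, where 21.4% of all tested genes passed. Tyk2 fell by 0.79 (limma adjusted p = 0.0161), Jak3 fell by 0.63 (adjusted p = 0.0221) and Jak2 rose by 0.53 (adjusted p = 0.0490, but 0.0763 after quantile normalization). Stat3 had 8.43 and 10.7 FPKM in knockout libraries and 6.78 FPKM in wild type after LIF removal, and 12.9 and 12.5 FPKM in knockout libraries and 8.53 FPKM in wild type with LIF. Its difference was -0.35 on LIF removal (adjusted p = 0.0992) and 0.48 in knockout against wild type (adjusted p = 0.0727), neither past the threshold. All 4 knockout libraries had more Stat3 than the wild type library of their medium, opposite to Pim1 and Pim3. The share of tested genes with that order was not counted.

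Of 14 inhibitors of the pathway, 2 rose and 2 fell on LIF removal, where 21.4% of all tested genes passed. Socs5 rose by 0.59 and Socs4 by 0.49 (limma adjusted p = 0.0429 and 0.0470), while Pias3, a SUMO ligase that binds Stat3, fell by 0.63 (adjusted p = 0.0141) and the phosphatase gene Ptpn6 fell by 0.60 (adjusted p = 0.0356). The Socs4 call was lost after quantile normalization (adjusted p = 0.0577). Pias3 was also, where 10.5% of all tested genes passed, the 1 inhibitor called in knockout against wild type cells (-0.71, SE 0.14, adjusted p = 0.0210). It had 6.73 and 7.73 FPKM in knockout libraries and 11.4 FPKM in wild type after LIF removal, and 11.7 and 10.5 FPKM in knockout libraries and 20.3 FPKM in wild type with LIF, the same order as Pim1. Socs3, the feedback inhibitor most used as a readout of LIF, was at -0.45 on LIF removal (adjusted p = 0.131).

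Among other known targets of LIF and Stat3, 11 were tested on LIF removal, of which 6 fell, 1 rose and 4 did not pass, where 21.4% of all tested genes passed, with a list median of -0.45 against -0.03 over all tested genes. The factors Tfcp2l1 (-1.24, SE 0.19, limma adjusted p = 0.00524), Klf4 (-1.12) and Klf5 (-0.62) of the naive network fell, as did the adhesion molecule Icam1 (-1.14), the NF-kappaB cofactor Bcl3 (-1.0) and the survival factor Mcl1 (-0.36). Junb, of the AP-1 family, rose by 0.58 (adjusted p = 0.0170). In knockout cells alone, where 6.92% of tested genes passed, 2 of the 11 fell, namely Tfcp2l1 and Icam1. In knockout against wild type over both media none of the 11 passed, against 10.5% of all tested genes. Pim1 and Pim3 did pass, but they were picked with their values known. Whether the listed targets differ from them was not tested. After quantile normalization 4 of the 11 fell and 1 rose on LIF removal, with Klf5 (adjusted p = 0.0597) and Mcl1 (adjusted p = 0.113) no longer called.

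**Figure D4:**
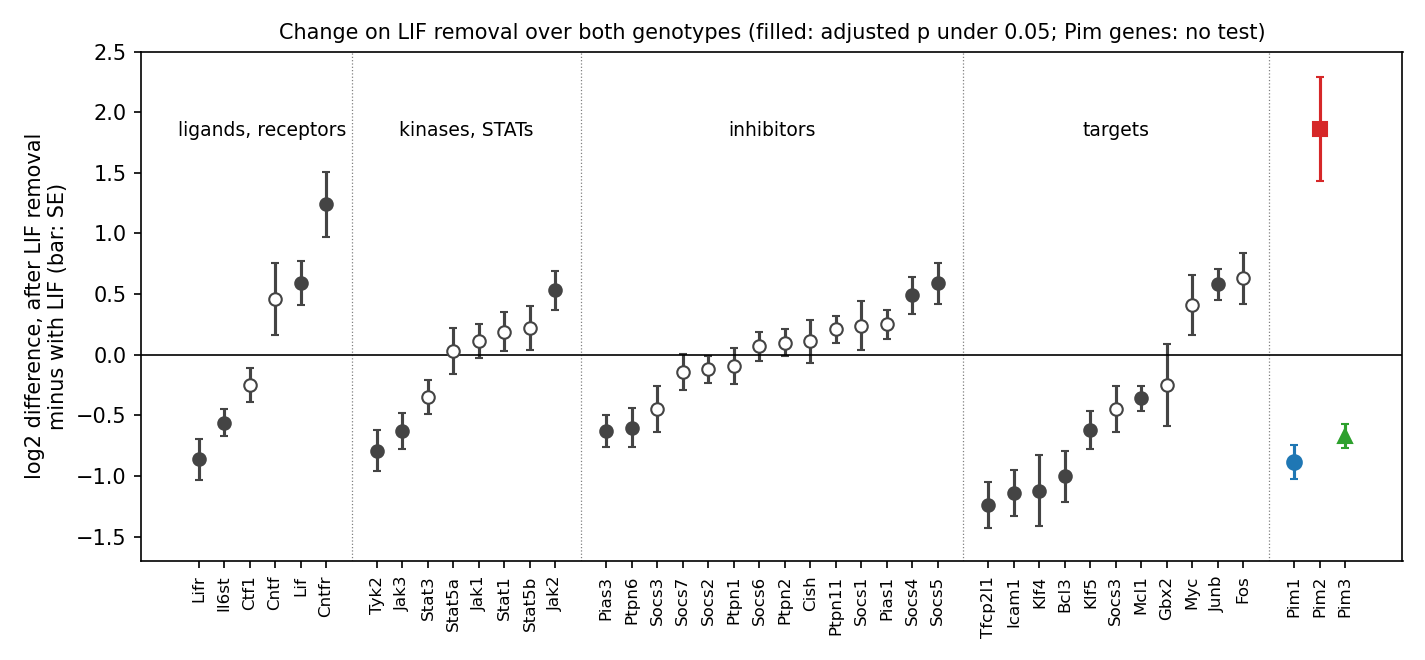
Log2 difference after LIF removal minus with LIF over both genotypes (bar: SE) for the tested genes of the LIF and Stat3 pathway by role, with the 3 Pim genes at the right. Filled circles passed an adjusted p of 0.05 and the coloured Pim symbols carry no test; Pim2 stands at 1.86, above every pathway gene plotted, and Pim1 (-0.88) and Pim3 (-0.67) lie in the range of the targets that fell.

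Of 22 proteins known as substrates or effectors of Pim kinases, 19 were tested, of which 1 rose and none fell on LIF removal, where 21.4% of all tested genes passed. In knockout against wild type cells none rose and 2 fell, a share equal to the 10.5% of all tested genes. After quantile normalization 5 rose on LIF removal, where 19.8% of all genes passed: Cdkn1a, Mycn, Cbx3 and Mdm2 were added. Map3k5 (Ask1), a stress kinase that Pim1 inhibits, rose by 0.83 on LIF removal (limma adjusted p = 0.0145). Cdkn1b (p27), a cell cycle inhibitor that Pim kinases phosphorylate, had 16.8 and 17.1 FPKM in knockout libraries and 25.5 FPKM in wild type after LIF removal, and 15.6 and 12.6 FPKM in knockout libraries and 29.8 FPKM in wild type with LIF (-0.80, SE 0.15, adjusted p = 0.0202). Akt1s1 (PRAS40), an mTORC1 inhibitor that Pim and Akt phosphorylate, had 15.8 and 20.5 FPKM in knockout libraries and 41.3 FPKM in wild type after LIF removal, and 21.4 and 20.8 FPKM in knockout libraries and 38.9 FPKM in wild type with LIF (-1.0, SE 0.14, adjusted p = 0.0110). For Cdkn1b and for Akt1s1 all 4 knockout libraries were below the wild type library of their medium, as for 26.1% of all tested genes. Myc, whose protein Pim kinases stabilise, was at 0.41 on LIF removal (adjusted p = 0.269) and 0.01 in knockout against wild type (adjusted p = 0.990).

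Neighbouring genes were compared on the same scale. Of the 3 nearest genes on each side of each member that averaged 1 FPKM or more, 18 in all, 1 passed on LIF removal and 1 in knockout against wild type, where 21.4% and 10.5% of all tested genes passed, so that the knockout count is near the background. Otud5, whose end lies 1.64 kb before Pim2, was at 0.23 on LIF removal (limma adjusted p = 0.203), and Slc35a2, which starts 0.596 kb after Pim2, was at 0.26 (adjusted p = 0.280). Timm17b, 15.9 kb from Pim2, fell by 0.51 on LIF removal (adjusted p = 0.0206). Selenoo, 223 kb from Pim3, fell by 1.41 in knockout cells (adjusted p = 0.0117), with 1.44 and 1.47 FPKM in knockout libraries and 4.88 FPKM in wild type after LIF removal, and 0.337 and 0.987 FPKM in knockout libraries and 3.80 FPKM in wild type with LIF. Next to Pim1, Tbc1d22b and Fgd2 were at 0.00 and -0.15 on LIF removal. Over all tested genes of chromosomes 15, 17 and X, the median difference of a knockout library from wild type in its medium lay between -0.11 and 0.09.

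**Figure D5:**
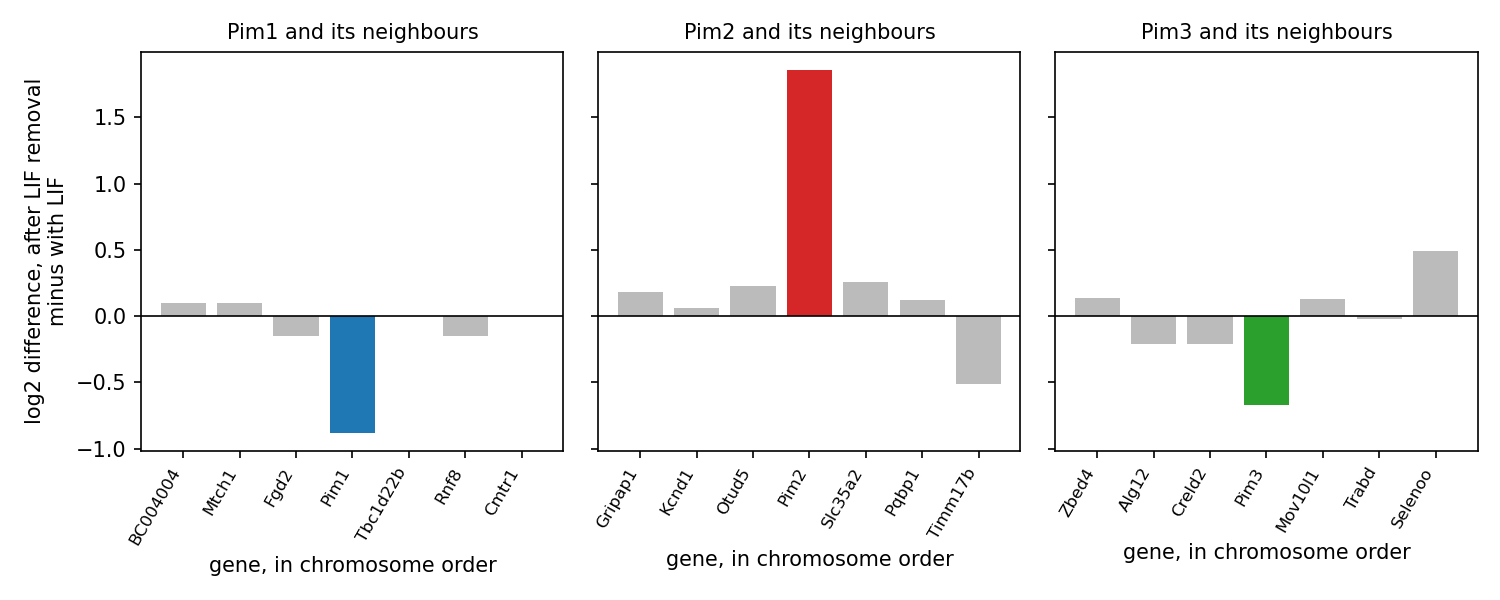
Log2 difference after LIF removal minus with LIF over both genotypes for each Pim gene (coloured) and its 3 nearest genes on each side in chromosome order (grey). Neighbours lie between -0.51 and 0.49, while Pim2 is at 1.86, Pim1 at -0.88 and Pim3 at -0.67.

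Genes with the most similar pattern were named by Pearson r of log2(FPKM + 1) over the 6 libraries. The 5674 genes compared averaged 5 FPKM or more and had a log2 range of at least 0.5. Unnamed gene models and ribosomal, mitochondrial and small RNA symbols had been left out, so a closer gene may exist among those. With 6 points that share library scaling, a high r is found for many genes and carries no test. Closest to Pim2 were Prkab2 (r = 0.995), Tlr2 (0.985), Eef1aknmt (0.982), Efs (0.979) and Nnat (0.978). Nnat, an imprinted gene of neural tissue, had 39.7 and 67.1 FPKM in knockout libraries and 37.3 FPKM in wild type after LIF removal, against 10.3 and 18.3 FPKM in knockout libraries and 2.39 FPKM in wild type with LIF. Prkab2, a subunit of the energy sensor AMPK, spanned 4.43 to 6.70 FPKM and was lowest in wild type with LIF, an order favoured by its choice for likeness to Pim2. Closest to Pim1 were Ubxn1 (r = 0.997), Snx21 (0.995), Mvk (0.993), Park7 (0.993) and Wtip (0.992). Closest to Pim3 were Pgm3 (r = 0.997), Nsmce3 (0.996), Imp3 (0.995), Gtf2ird1 (0.994) and Vasp (0.992). Vasp, an actin regulator, had 25.8 and 33.4 FPKM in knockout libraries and 70.2 FPKM in wild type after LIF removal, and 53.9 and 49.8 FPKM in knockout libraries and 106 FPKM in wild type with LIF.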

How the data were processed

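RNA was measured by 150 bp paired-end sequencing of total RNA in 6 libraries. The authors deposited FPKM per gene symbol and library. STAR, Cufflinks and the mm10 build are named, per the submitters' processing notes; for versions, annotation and filters nothing is given in the sources used here. Read depth is unknown, so no counting interval is given. No other columns were present.

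FPKM was analysed as log2(FPKM + 1) for the 11785 genes that averaged 1 FPKM or more; differences on this scale understate changes of low genes. limma 3.58.1 in R 4.3.3 (empirical Bayes, intensity trend, two-sided, Benjamini-Hochberg over all tested genes, threshold 0.05) fitted genotype and medium as added terms (3 residual degrees of freedom), and 4 groups for knockout cells alone and the difference of responses (2 residual degrees of freedom). The fit was run on simulated data with changes on LIF removal and independent noise in each library. That run is no check on the shared deviation of same-numbered knockout libraries. Alternatives were a pseudocount of 0.1, no filter or a mean of 5 FPKM, quantile and median ratio scaling, no trend, a replicate block and each library left out. List genes under each scaling, and the pluripotency sum without Dppa5a, were added after seeing the data. Members, lists and the rule for named genes (the members, Hnrnpf, list members called in a comparison or listed at 0, the 5 most similar genes and the 3 nearest on each side) were chosen with earlier results of these data known. Further list members are given for context, chosen after their values were seen. Positions are from GENCODE M21 and promoters from RefSeq, both GRCm38. A further gene list is not reported here.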

Additional observations from a re-analysis of the deposited data

How the results depend on the processing

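The directions of Pim1, Pim2 and Pim3 on LIF removal held under all 13 alternatives run (pseudocount, filter, scaling, trend, replicate block, each library left out). The filter, trend and replicate block cannot change a gene's own difference, so they are no check on its direction. Pim2 minus the mean of Pim1 and Pim3 changed by 2.63 on LIF removal. This value ranged from 1.88, without either wild type library, to 3.17, without knockout library 2 with LIF. With single libraries left out, the Pim2 difference on LIF removal ranged from 1.14 to 2.37 over both genotypes and from 0.60 to 1.67 in knockout cells, and that of Pim1 in knockout cells from -1.07 to -0.58.

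In knockout against wild type, Pim1 ranged from -1.01 to -0.79 and Pim3 from -0.93 to -0.82 with libraries left out, where leaving out either wild type library ends both calls because 1 medium is then compared. Pim1 was -0.89 (adjusted p = 0.0536) without a filter, which tests more genes. Pim2 ranged from -0.12 to 2.05. The difference of responses of Pim1 ranged from -0.10 to 0.40 and that of Pim3, close to 0, from -0.12 to 0.14, with -0.06 after quantile normalization and -0.01 with median ratio scaling. For Pim2 it stayed between -2.71 and -1.64 and passed under no alternative.

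Counts of called genes moved more. In knockout against wild type, 1232 became 335 without a filter and 5 to 994 with libraries left out (7 without wild type with LIF, 5 without wild type after LIF removal, 560 without knockout library 2 with LIF). On LIF removal over both genotypes, 2523 became 817 to 1924 with libraries left out. In knockout cells alone, 816 became 0 without a filter, 2621 with the replicate block, and 124 to 821 with libraries left out. For the difference of responses 0 became 1 without knockout library 1 with LIF.

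Same-numbered knockout libraries deviated together (r = 0.366 across 11785 genes), but the labels do not say what a number marks, so the block is no more than an alternative; it could not be fitted for knockout against wild type. Depth is unknown and limits what can be said of low genes.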
